A study of Mus musculus with 10 samples.

Results

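Class I major histocompatibility complex (MHC) genes were examined in regulatory T cells (Treg), CD4 T cells that express Foxp3 and hold immune responses in check, after loss of TFAM, the protein that packages mitochondrial DNA and is needed for its transcription. The group holds 9 of the 22553 genes in the count table, chosen by name: the class I heavy chains H2-Bl, H2-K1, H2-D1, H2-T23, H2-Q4, H2-Q6 and H2-Q7, the light chain B2m and the regulator Nlrc5. H2-Bl was placed in the group because it fell in knockout (KO) cells in an earlier look at these same counts. Its KO against control difference is therefore given as a description with no p, as are those of the other 8 genes, which were listed beside it with those results known.

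KO cells came from female C57BL/6 mice of genotype Tfamfl/flFoxp3Yfp-Cre/+, and control (Ctrl) cells from Tfamfl/+Foxp3Yfp-Cre/+ littermates. All mice carried 1 Foxp3Yfp-Cre allele, which makes a YFP-Cre fusion wherever Foxp3 is active, so cells were sorted as YFP+ and the controls also lose a Tfam copy where Cre acts. Foxp3 lies on the X chromosome, and in these heterozygous females Cre acts in those Treg that use the X bearing the allele, so the mice also keep Treg without Cre that were not sorted. Age was not given in the labels. Poly(A) RNA was sequenced from cells of spleen and lymph node, 3 KO and 3 Ctrl libraries, each a pool of 2 to 3 mice.

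Gene counts per library totalled 19087757 to 23794028 in KO and 21419772 to 27490253 in Ctrl. Tfam stood at 15.6, 14.4 and 16.5 CPM (counts scaled to the library total) in KO replicates 1 to 3 and at 25.9, 30.6 and 42.4 CPM in Ctrl replicates 1 to 3, a log2 fold change of -1.09 ± 0.17 (SE; edgeR, adjusted p = 0.020), so no library went against its label. Foxp3 averaged 818 ± 48.0 CPM in KO and 744 ± 95.3 CPM in Ctrl (SD, n = 3 each). Levels throughout are CPM further scaled by TMM, a factor that corrects for differences in RNA makeup between libraries. Of 10 marker genes of red pulp macrophages and other myeloid cells, 0 were at 0 in all libraries, and their summed level was 513, 1220 and 442 CPM in KO replicates 1 to 3 and 398, 855 and 457 CPM in Ctrl replicates 1 to 3, so that both libraries numbered 2 held the most. The 5 B cell markers summed to between 11.9 and 18.0 CPM in KO and between 14.4 and 20.3 CPM in Ctrl. Macrophages and B cells also express class I genes, and the part of these cells in the values below was not tested. In bulk RNA, fewer cells of a type and less RNA per cell cannot be told apart.

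Class I molecules pair a membrane heavy chain with the small invariant chain encoded by B2m, and carry peptides made by the proteasome and pumped into the endoplasmic reticulum by the TAP transporter. The classical heavy chains H2-K1 and H2-D1 present peptides to CD8 T cells on nearly all nucleated cells, while the non-classical Q, T and M region genes have narrower roles. Transcription of class I genes in T cells depends strongly on NLRC5, which is recruited to a promoter module made of W/S, X1, X2 and Y boxes, and it is raised further by interferons and by NF-kB acting at an enhancer upstream.

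The promoters of 5 genes are shown for matches to the short X2 and Y core sequences, the only parts of this module searched. They also show how alike or unlike the heavy chain genes are. Strand, order and spacing of the matches were not held against the module, so a match need not be the box itself. RefSeq windows (build GRCm38.p6, from 250 bases before to 50 after a gene's start) were matched for 7 of the 9 genes, with no entry for H2-Bl or Nlrc5. Capitals mark matches, on either strand, to TGACG (core of the X2 box), CCAAT (core of the Y box), GGGATTCCC (an NF-kB site), GAAANNGAA (core of an interferon-stimulated response element) and GAANNGAAA (the same element with another spacing, added after the windows had been read).
H2-K1 promoter, chr17:34000284-34000583, minus strand: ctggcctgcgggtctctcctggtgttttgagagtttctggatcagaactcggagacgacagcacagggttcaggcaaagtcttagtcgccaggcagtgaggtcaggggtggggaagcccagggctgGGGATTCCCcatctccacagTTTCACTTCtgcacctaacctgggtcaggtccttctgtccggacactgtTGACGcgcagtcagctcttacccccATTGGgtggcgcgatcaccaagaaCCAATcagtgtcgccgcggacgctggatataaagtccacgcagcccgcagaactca
H2-D1 promoter, chr17:35262844-35263143, plus strand: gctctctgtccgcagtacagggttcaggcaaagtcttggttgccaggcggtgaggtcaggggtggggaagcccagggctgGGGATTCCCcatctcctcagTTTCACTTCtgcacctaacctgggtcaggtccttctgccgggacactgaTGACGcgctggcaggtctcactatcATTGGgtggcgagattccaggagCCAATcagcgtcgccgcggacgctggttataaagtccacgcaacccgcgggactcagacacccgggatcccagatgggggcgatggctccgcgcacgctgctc
H2-Q7 promoter, chr17:35438905-35439204, plus strand: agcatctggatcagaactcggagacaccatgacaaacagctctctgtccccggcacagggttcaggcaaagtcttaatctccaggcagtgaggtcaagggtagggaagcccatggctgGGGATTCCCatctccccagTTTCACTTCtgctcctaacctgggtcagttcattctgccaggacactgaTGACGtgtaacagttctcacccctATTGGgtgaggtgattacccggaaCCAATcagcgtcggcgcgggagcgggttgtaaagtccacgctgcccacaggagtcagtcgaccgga
H2-T23 promoter, chr17:36032652-36032951, minus strand: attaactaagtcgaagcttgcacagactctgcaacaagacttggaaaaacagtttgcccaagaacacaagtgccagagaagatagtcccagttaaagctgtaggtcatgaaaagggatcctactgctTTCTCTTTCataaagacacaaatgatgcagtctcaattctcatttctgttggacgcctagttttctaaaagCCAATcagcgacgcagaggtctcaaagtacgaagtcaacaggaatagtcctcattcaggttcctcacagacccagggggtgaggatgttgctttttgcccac
B2m promoter, chr2:122147437-122147736, plus strand: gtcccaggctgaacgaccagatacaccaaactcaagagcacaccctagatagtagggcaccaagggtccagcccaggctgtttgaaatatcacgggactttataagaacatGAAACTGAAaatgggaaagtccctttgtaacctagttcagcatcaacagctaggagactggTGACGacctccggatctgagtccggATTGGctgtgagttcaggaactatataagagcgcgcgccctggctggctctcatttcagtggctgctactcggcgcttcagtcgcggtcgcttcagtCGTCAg

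All 7 windows held CCAAT on either strand, as did 37.4% of the 32851 mouse promoter windows searched the same way. In H2-T23 it was matched only on the strand of the gene, and in B2m only on the other strand. TGACG was in the windows of H2-K1, H2-D1, H2-Q4, H2-Q7 and B2m (5 of 7, against 20.8% of all windows). In H2-Q4 the first such match, at bases 178 to 182, lay after the reverse of CCAAT at bases 172 to 176. GGGATTCCC was in those of H2-K1, H2-D1, H2-Q6 and H2-Q7 (4 of 7, against 0.353% of all windows). GAANNGAAA was in those of H2-K1, H2-D1, H2-Q4, H2-Q6 and H2-Q7 (5 of 7, against 7.52%), and GAAANNGAA in those of H2-T23 and B2m (2 of 7, against 8.56%). GAANNGAAA and GAAANNGAA can overlap, as can the reverse of CCAAT with other motifs, and a match is a run of letters, not a measured binding site. In pairwise alignment the H2-Q6 and H2-Q7 windows were 97.7% identical over 260 aligned bases, H2-K1 and H2-D1 87.7% over 253, and H2-K1 and H2-Q7 86.1% over 267. The window of H2-T23 stood apart, at 57.1% identity over 240 aligned bases with H2-K1, close to the 60.4% over 260 bases between H2-K1 and the unrelated B2m window.

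These genes are copies of each other, which bears on every value that follows. The authors' alignment and counting settings for reads that match several copies were not given in the sources used here, nor was the strand setting. Reads could therefore have been split, dropped or assigned to the wrong copy, and the values of single heavy chain genes, above all H2-Bl and the pair H2-Q6 and H2-Q7, are uncertain to an unknown degree. RefSeq lists H2-Bl as a transcribed pseudogene and gives H2-K1 and H2-D1 among its synonyms. Transcript lengths were not used, so levels are compared between libraries and not between genes.

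H2-Bl (ENSMUSG00000073406), a T region class I gene, had the largest fitted difference of the 9. It stood at 5.02, 6.91 and 2.73 CPM in KO replicates 1 to 3 and at 49.9, 23.2 and 54.5 CPM in Ctrl replicates 1 to 3. The groups did not overlap, and the lowest Ctrl library, replicate 2, was still above the highest KO library, also replicate 2. The raw counts behind these levels were 119, 142 and 52 in KO and 1299, 511 and 1491 in Ctrl, or 313 in KO and 3301 in Ctrl in all. The mean level was 4.89 ± 2.10 CPM in KO and 42.5 ± 16.9 CPM in Ctrl (SD, n = 3 each), and the fitted log2 fold change was -3.12 ± 0.38 (SE), an 8.66-fold lower level in KO. Between libraries with the same number the fall was 9.93-fold for number 1, 3.36-fold for number 2 and 20.0-fold for number 3. The libraries numbered 2 also held the most myeloid marker RNA, and whether that bears on H2-Bl was not tested. Without both libraries numbered 2 the fitted log2 fold change was -3.73.

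**Figure D1:**
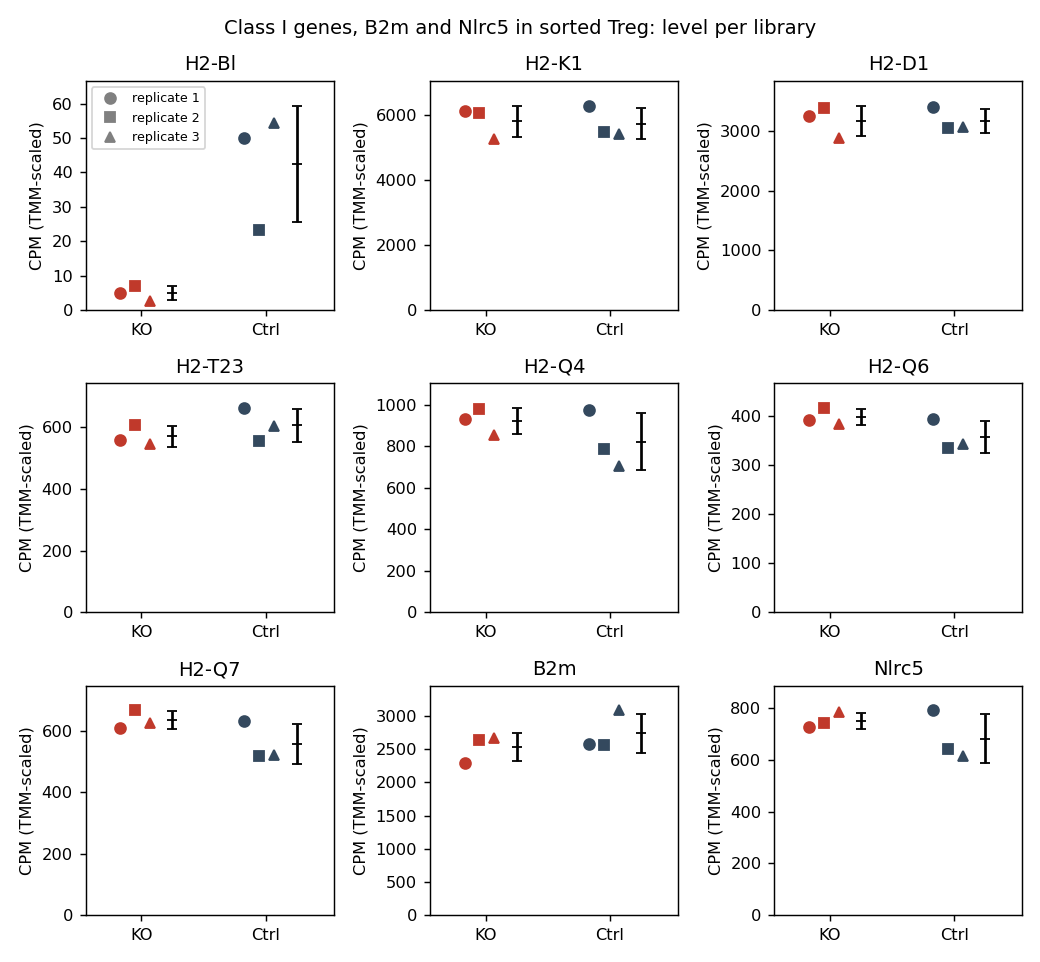
Level of each of the 9 genes in each library, in TMM-scaled CPM on a linear axis from 0, with KO on the left and Ctrl on the right of each panel. Symbols give the replicate number, and the bars beside them the mean ± SD (n = 3 each). H2-Bl lies between 2.73 and 6.91 CPM in KO and between 23.2 and 54.5 CPM in Ctrl, while in the other 8 panels the groups overlap.

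The classical heavy chains stood at overlapping levels in both groups. H2-K1 (ENSMUSG00000061232) stood at 6107, 6047 and 5251 CPM in KO replicates 1 to 3 and at 6271, 5471 and 5419 CPM in Ctrl replicates 1 to 3, a log2 fold change of 0.02 ± 0.10 (SE). H2-D1 (ENSMUSG00000073411) stood at 3243, 3375 and 2882 CPM in KO and at 3400, 3050 and 3061 CPM in Ctrl, a log2 fold change of -0.002 ± 0.09. For both genes KO replicate 3 was the lowest library and Ctrl replicate 1 the highest, with 1.19-fold between them for H2-K1 and 1.18-fold for H2-D1. The sign of either value is not fixed, since it was below 0 under 5 of 13 alternative fits for H2-K1 and under 7 of 13 for H2-D1.

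The 3 Q region members had fitted values above 0, as had H2-Q1 at 0.92 ± 0.62 and H2-Q5 at 0.34 ± 0.14 (SE). H2-Q2 and H2-Q10 of the same region were below 0, at -0.39 ± 0.16 and -0.09 ± 0.41. H2-Q7 (ENSMUSG00000060550), which encodes a Qa-2 antigen, a class I molecule that can be held in the membrane by a lipid anchor, stood at 611, 668 and 627 CPM in KO replicates 1 to 3 and at 634, 519 and 524 CPM in Ctrl replicates 1 to 3 (log2 fold change 0.19 ± 0.09). Ctrl replicate 1 alone reached into the KO range. H2-Q6 (ENSMUSG00000073409), its close copy, stood at 393, 416 and 384 CPM in KO and at 395, 335 and 343 CPM in Ctrl (0.15 ± 0.08). H2-Q4 (ENSMUSG00000035929), another Q region heavy chain, stood at 932, 980 and 856 CPM in KO and at 973, 786 and 708 CPM in Ctrl (0.17 ± 0.12). These 3 genes share the pattern of a Ctrl replicate 1 at the KO level and the other two Ctrl libraries below all KO libraries. Without Ctrl replicate 1 the log2 fold changes were 0.30 for H2-Q7, 0.24 for H2-Q6 and 0.32 for H2-Q4. Without both libraries numbered 2 they were 0.10 for H2-Q7, 0.07 for H2-Q6 and 0.09 for H2-Q4, and H2-Q4 was also at 0.07 without Ctrl replicate 3.

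H2-T23 (ENSMUSG00000067212) encodes Qa-1, which presents leader peptides of other class I molecules to the CD94-NKG2A receptor of natural killer and CD8 T cells. It stood at 557, 606 and 543 CPM in KO replicates 1 to 3 and at 660, 554 and 602 CPM in Ctrl replicates 1 to 3, with overlapping groups and a log2 fold change of -0.09 ± 0.08 (SE). Although H2-T23 lies in the same T region as H2-Bl, its lowest and highest libraries differed by 1.22-fold, against 20.0-fold for H2-Bl.

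B2m (ENSMUSG00000060802), the light chain that pairs with class I heavy chains, stood at 2290, 2637 and 2672 CPM in KO replicates 1 to 3 and at 2582, 2557 and 3085 CPM in Ctrl replicates 1 to 3. Its highest library was Ctrl replicate 3 and its lowest KO replicate 1, with a log2 fold change of -0.11 ± 0.10 (SE). Nlrc5 (ENSMUSG00000074151), the class I transactivator, stood at 726, 743 and 786 CPM in KO and at 792, 642 and 616 CPM in Ctrl, a log2 fold change of 0.14 ± 0.10. As with the Q region genes, Ctrl replicate 1 was high, here the highest of all 6 libraries, and the other two Ctrl libraries lay below all KO libraries.

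**Figure D2:**
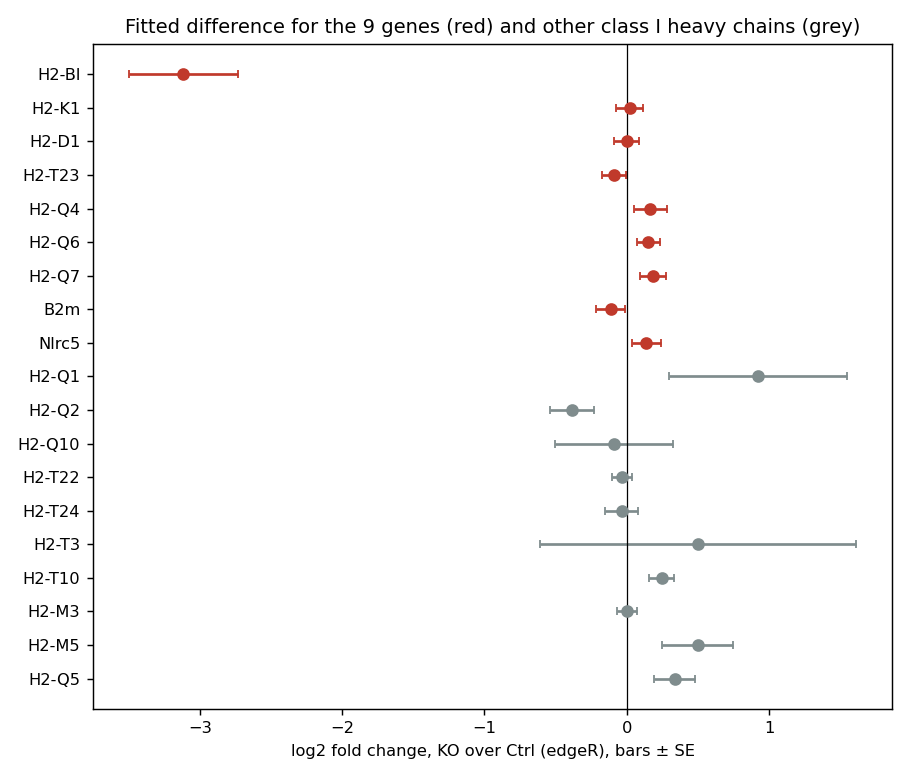
Fitted log2 fold change, KO over Ctrl, with bars of ± SE (3 libraries per group). The 9 genes are in red, and the 10 other listed class I heavy chains that passed the filter on low counts in grey. Gm-numbered gene models are not shown. H2-Bl lies at -3.12, and the other 8 red points lie between -0.11 (B2m) and 0.19 (H2-Q7).

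All 9 members passed the filter on low counts. Of the 9, 1 (H2-Bl) was called lower at an adjusted p under 0.05 over all genes and 0 higher, where 1.39% of the 11990 tested genes were called lower and 0.1% higher. Likewise 1 of 9 had all KO libraries below all Ctrl libraries, where 10.4% of tested genes did, and 0 had them above, where 8.63% did. Because H2-Bl was chosen on this contrast, these counts restate the choice and are no test of it. Without KO replicate 1 H2-Bl did not pass that threshold, at a log2 fold change of -3.12.

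Among the 8 genes other than H2-Bl, the small differences changed sign with the replicate number. Between the libraries numbered 1, all 8 were lower in KO, with log2 ratios from -0.25 to -0.008. Between those numbered 2, all 8 were higher in KO, from 0.04 to 0.36. Between those numbered 3, H2-K1, H2-D1, H2-T23 and B2m were lower and H2-Q4, H2-Q6, H2-Q7 and Nlrc5 higher, from -0.21 to 0.35. The matching shares over all tested genes were not counted, and copies that may share reads are not separate results. H2-Bl was lower in KO between all 3 same-numbered libraries, with log2 ratios of -3.31, -1.75 and -4.32.

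In a sum over heavy chain genes, a read that moves from one summed copy to another changes nothing. Gm-numbered gene models such as Gm7030 were outside this sum. The 7 heavy chain members and 15 further class I heavy chain genes of the table summed to 12429, 12728 and 11138 CPM in KO replicates 1 to 3 and to 12989, 11309 and 11224 CPM in Ctrl replicates 1 to 3. The groups overlapped, at 12098 ± 845 CPM in KO and 11840 ± 995 CPM in Ctrl (SD, n = 3 each), and the sum fitted as a single feature had a log2 fold change of 0.04 ± 0.10 (SE). H2-Bl held 0.0404%, 0.0543% and 0.0245% of these heavy chain counts in KO replicates 1 to 3 and 0.384%, 0.205% and 0.485% in Ctrl replicates 1 to 3. Set against H2-K1 alone, H2-Bl counts equalled 0.0823%, 0.114% and 0.052% of the H2-K1 counts in KO and 0.796%, 0.425% and 1.01% in Ctrl. The H2-Bl count was thus at most 1.01% of the size of the H2-K1 count in any library, and whether reads passed between these copies was not tested.

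**Figure D3:**
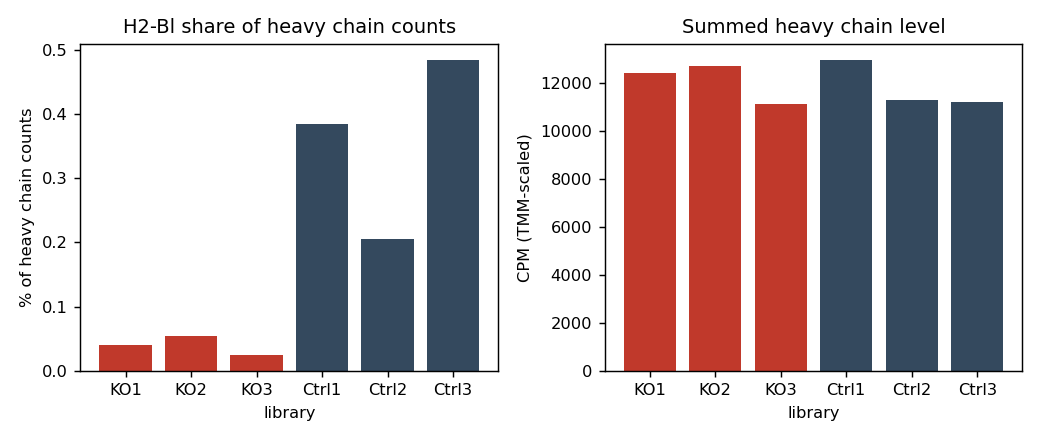
Left, H2-Bl counts as a percentage of the summed heavy chain counts in each library. Right, the summed level of the 22 heavy chain genes in TMM-scaled CPM. KO libraries are in red and Ctrl libraries in dark blue. The share is at most 0.0543% in KO and at least 0.205% in Ctrl, while the summed level lies between 11138 and 12989 CPM in all 6 libraries.

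Among the other heavy chains, the shares of H2-K1 and H2-D1 overlapped between groups. H2-K1 made up 47.9 ± 1.06% of heavy chain counts in KO and 48.3 ± 0.0563% in Ctrl, and H2-D1 made up 26.2 ± 0.328% in KO and 26.8 ± 0.564% in Ctrl. The shares of the other 4 members did not overlap, although their levels in CPM did. Shares of 1 sum depend on each other, so these are not 4 separate results. No such share exists for all genes. By CPM, 10.4% of all tested genes had all KO libraries below all Ctrl libraries and 8.63% had them above. H2-Q4 made up 7.63 ± 0.111% in KO and 6.92 ± 0.595% in Ctrl, H2-Q6 made up 3.29 ± 0.146% in KO and 3.02 ± 0.0503% in Ctrl, and H2-Q7 made up 5.27 ± 0.359% in KO and 4.71 ± 0.150% in Ctrl (SD, n = 3 each). H2-T23 was lower in KO, at 4.70 ± 0.206%, against 5.11 ± 0.233% in Ctrl. The gaps between the nearest KO and Ctrl libraries were small, as between 7.50% in KO replicate 1 and 7.49% in Ctrl replicate 1 for H2-Q4. These are shares of reads, so longer transcripts count for more.

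Of 15 other listed class I heavy chain genes in the table, 10 were tested and 0 were called by edgeR, DESeq2 or limma-voom. An unadjusted edgeR p under 0.05 was seen for 3 of the 10 and for 12.6% of all tested genes. The median log2 fold change of the 10 was 0.12, against -0.005 over all tested genes. The most abundant were H2-T22, a ligand of some gamma delta T cell receptors, at 202 ± 9.44 CPM in KO and 207 ± 12.8 CPM in Ctrl (log2 fold change -0.03 ± 0.07; edgeR, adjusted p = 0.888), and H2-Q5, listed by RefSeq as a transcribed pseudogene, at 155 ± 12.4 CPM in KO and 123 ± 26.8 CPM in Ctrl (0.34 ± 0.14; adjusted p = 0.381). H2-Q5 was called higher with replicate number as a block (edgeR, adjusted p = 0.0148). H2-Q2 alone of the 10 had all KO libraries below all Ctrl libraries, as had 10.4% of all tested genes. It stood at 13.6, 13.7 and 13.1 CPM in KO replicates 1 to 3 and 15.5, 22.5 and 15.0 CPM in Ctrl replicates 1 to 3 (-0.39 ± 0.16; edgeR, adjusted p = 0.355). H2-T10 (0.25 ± 0.09; edgeR, adjusted p = 0.288) and H2-M5 (0.50 ± 0.25; adjusted p = 0.452) had all KO libraries above all Ctrl libraries, as had 8.63% of all tested genes. H2-M3, named after its values were seen because it presents N-formylated peptides, which bacteria and mitochondria make, averaged 70.5 ± 2.93 CPM in KO and 70.4 ± 4.53 CPM in Ctrl (edgeR, adjusted p = 0.998). Gm-numbered gene models were outside this list. Among them Gm7030 (log2 fold change -2.87 ± 0.85, SE) and Gm8909 (0.16 ± 0.18) were tested, and in both the groups overlapped.

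Several low T region copies had many reads in some libraries and few or none in others of the same group. Gm7030, which RefSeq also calls H2-t9 and places a few genes from H2-Bl, had 16, 10 and 9 counts in KO replicates 1 to 3 and 151, 133 and 10 in Ctrl replicates 1 to 3. Gm11127, a class I gene model on the other side of H2-Bl, had 0 counts in all 3 KO libraries and in Ctrl replicates 1 and 2 and 208 in Ctrl replicate 3. H2-T3, the thymus leukaemia antigen gene, had 16, 228 and 15 counts in KO and 182, 21 and 23 in Ctrl, so 1 library of each group was high. All 3 were singled out after their counts were seen, and 1 high library can set the mean of such a gene.

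The genes whose profile was nearest to that of H2-Bl were Cxcr3, Tigit, Ttc39c, Arnt2 and Tox2. Likeness was the root mean square difference between centred log2(CPM + 0.5) values over the 6 libraries, and it was 0.614 for Cxcr3, a chemokine receptor, 0.620 for Tigit, a co-inhibitory receptor, 0.670 for Ttc39c, 0.673 for Arnt2, a transcription factor of the bHLH-PAS family, and 0.690 for Tox2, an HMG-box transcription factor, among 10655 named genes whose mean reached 1 CPM. Cxcr3 stood at 6.92, 7.79 and 6.04 CPM in KO replicates 1 to 3 and at 39.8, 54.8 and 41.2 CPM in Ctrl replicates 1 to 3. In Ctrl the order of the libraries differed, since Ctrl replicate 2 was the highest for Cxcr3 and the lowest for H2-Bl. None of the 5 is a class I gene, but the group's own genes and Gm-numbered gene models were left out of the search. The absence of those class I genes is therefore no result. H2-Bl was chosen for its fall in KO, so low KO and high Ctrl levels in its nearest genes follow from that choice.

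**Figure D4:**
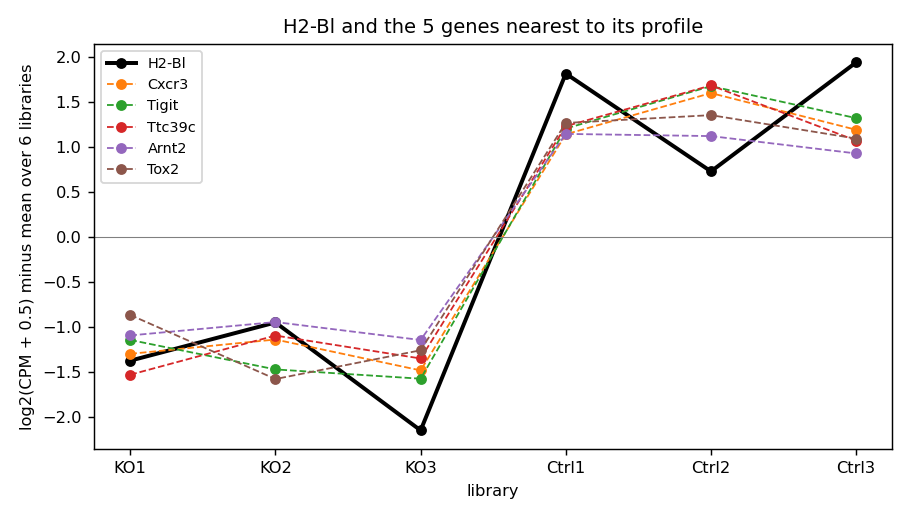
Profile of H2-Bl (black) and of the 5 genes nearest to it over the 6 libraries, as log2(CPM + 0.5) minus the gene's mean over the libraries, with KO libraries on the left and lines drawn only to guide the eye. All 6 genes are below 0 in KO and above 0 in Ctrl, and Ctrl replicate 2 is the lowest Ctrl library for H2-Bl but for none of the other 5.

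The genes that supply and load class I peptides were called in neither direction. Of 23 tested genes of this list, 0 were called by edgeR, DESeq2 or limma-voom and 1 had an unadjusted edgeR p under 0.05. Their fitted values were below 0 in 18 of 23 genes, where 51.2% of all tested genes were, with a median of -0.12, against -0.005 over all tested genes. Ctrl replicate 1 was the highest library for 10 of the 23, and for 11.1% of all tested genes. Tap1, a subunit of the peptide transporter, averaged 706 ± 12.1 CPM in KO and 703 ± 61.5 CPM in Ctrl (log2 fold change 0.005 ± 0.08; edgeR, adjusted p = 0.988). Hspa5, the general chaperone of the endoplasmic reticulum, averaged 750 ± 102 CPM in KO and 837 ± 71.6 CPM in Ctrl (-0.16 ± 0.11; adjusted p = 0.598). Blmh, a cytosolic peptidase that trims peptides, had the lowest value of the list at -0.28 ± 0.08 and was called lower only with replicate number as a block (edgeR, adjusted p = 0.0204).

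A list of transcription factors known from class I promoters held, among others, the RFX subunits, NF-Y, CREB1, IRF1 and NF-kB. It also held chromatin enzymes and their partners, among them Ezh2 and Kat2b. Of its 27 genes, 0 were called by edgeR, DESeq2 or limma-voom. An unadjusted edgeR p under 0.05 was seen for 2 of the 27, against 12.6% of all tested genes. These 2 were Ezh2 (log2 fold change -0.20 ± 0.08, SE) and Kat2b (0.23 ± 0.08). The median log2 fold change of the 27 was -0.006. Nfkb1, which encodes an NF-kB subunit, averaged 649 ± 43.6 CPM in KO and 664 ± 64.3 CPM in Ctrl (edgeR, adjusted p = 0.912).

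Interferon receptors and interferon-induced genes had 0 of 30 genes called by edgeR or limma-voom and 2 called lower by DESeq2. An unadjusted edgeR p under 0.05 was seen for 6 of the 30, against 12.6% of all tested genes. The median was -0.23, and 26 of 30 fitted values were below 0, where 51.2% of all tested genes were. With replicate number as a block edgeR called Mx1 (adjusted p = 0.00446), Gbp3 (0.00565) and Isg15 (0.0188) lower, and DESeq2 without the block called Mx1 and Gbp3. Mx1, an antiviral GTPase, stood at 7.22, 9.45 and 5.41 CPM in KO replicates 1 to 3 and at 18.0, 13.2 and 9.50 CPM in Ctrl replicates 1 to 3, with KO replicate 2 just under Ctrl replicate 3. Ctrl replicate 1 was the highest library for 23 of the 30 genes, whereas it was the highest for 11.1% of all tested genes. The same library was the highest for H2-K1, H2-D1, H2-T23 and Nlrc5, and whether its interferon-induced genes bear on the class I values was not tested.

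The list of receptors that bind class I also held related receptors not known to do so, among them Cd244a, which was tested. Genes of this list were mostly too low to test. Of 17 genes in the table, 5 were tested and 0 called by edgeR, DESeq2 or limma-voom, and 1, Cd160, had an unadjusted edgeR p under 0.05. Cd160, a receptor of class I and of the TNF receptor family member HVEM, averaged 4.96 ± 0.475 CPM in KO and 7.36 ± 1.31 CPM in Ctrl (log2 fold change -0.57 ± 0.17; edgeR, adjusted p = 0.199), and was called lower with replicate number as a block (adjusted p = 0.0294). Cd8b1, a chain of the CD8 co-receptor, averaged 14.6 ± 1.92 CPM in KO and 13.2 ± 0.868 CPM in Ctrl (adjusted p = 0.660).

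Of 6 tested class I-like genes outside the MHC, 0 were called by edgeR, DESeq2 or limma-voom and 0 had an unadjusted edgeR p under 0.05, with a median of 0.23. Cd1d1, which presents lipids, averaged 33.3 ± 2.39 CPM in KO and 31.0 ± 1.15 CPM in Ctrl (edgeR, adjusted p = 0.640). Fcgrt, the neonatal Fc receptor, averaged 14.9 ± 9.12 CPM in KO and 12.3 ± 6.02 CPM in Ctrl (adjusted p = 0.832), and was highest in both libraries numbered 2. Of 11 class II genes, 0 were called by any of the 3 tools. An unadjusted edgeR p under 0.05 was seen for 2 of the 11 and for 12.6% of all tested genes. Cd74, the class II invariant chain, averaged 112 ± 56.4 CPM in KO and 124 ± 38.8 CPM in Ctrl (edgeR, adjusted p = 0.900). KO replicate 2 was the highest library for 7 of the 11 class II genes, and for 14.5% of all tested genes.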

How the data were processed

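Read counts per gene were deposited by the authors as a table with a column for each of the 6 RNA libraries, which the labels call HTSeq counts. Builds mm10 and mm9 and, beside HTSeq, the tools HISAT2, Bowtie2, Cufflinks and DESeq2 appear in the submitters' processing notes without role or version; annotation, strand and multi-mapping settings were not given in the sources used. ATAC-seq samples were not analysed here. Symbols were matched for 22522 of 22553 IDs.

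KO was tested against Ctrl by edgeR 4.0.16 (R 4.3.3): filterByExpr (minimum count 10, minimum total 15), TMM (factors 0.9899 to 1.027), quasi-likelihood F test, Benjamini-Hochberg adjustment over 11990 genes, called at an adjusted p under 0.05. DESeq2 1.42.0 and limma-voom (limma 3.58.1) were alternatives. In the shallowest library 3 counts equal 0.157 CPM and in the deepest 0.109 CPM; floors cover counting error only. On counts simulated from these libraries, 77.8% of genes changed 2-fold and 57.1% of those changed 1.5-fold were called, and unchanged genes made up 8.46% of calls.

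The main fit did not use replicate number as a block, since the labels do not say what a number marks. Its SEs and adjusted p-values are thus unpaired. Deviations from the group means correlated at 0.327, 0.561 and 0.55 (Pearson, across 11990 genes) between same-numbered KO and Ctrl libraries. Such libraries are therefore also set side by side above. Values with the replicate block are given where they change a call. Whether pools came from separate litters or days is not given, so p-values measure the spread between pools, which may be partly technical. Libraries of 1 group differed by more than counting noise (chi-square per degree of freedom 8.98 to 28.3) and were counted as separate samples.

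Members, lists, tests and alternatives were chosen with earlier results of these data known. Named genes were the members, Tfam and Foxp3, up to 4 called genes or the 2 most abundant of each list, and the 5 profiles nearest to H2-Bl. Genes named outside this rule were chosen after their values were seen. Among them are H2-Q1, H2-Q2, H2-Q10, H2-T10, H2-M3, H2-M5, H2-T3, Gm7030, Gm8909, Gm11127, Blmh, Ezh2, Kat2b, Cd244a, Mx1, Gbp3 and Isg15. A gene that this rule names is not reported here.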

Additional observations from a re-analysis of the deposited data

How the results depend on the processing

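H2-Bl kept its direction under all 13 alternatives, with log2 fold changes from -3.73 to -2.84 (-3.42 to -2.84 with 1 library left out), which describes a gene chosen on this contrast. H2-Q4, H2-Q6, H2-Q7 and Nlrc5 stayed above 0 and H2-T23 and B2m below 0 under all 13, while H2-K1 and H2-D1 took both signs. H2-T23 moved beyond its replicate spread in 1 alternative, to -0.20 without both libraries numbered 2.

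Over all genes, 167 were called lower and 12 higher. DESeq2 called 264 lower and 76 higher, edgeR with the replicate block 526 and 236, DESeq2 with the block 300 and 138, and edgeR without both libraries numbered 2 called 54 and 0; limma-voom called 136 lower and 3 higher. With 1 library left out the range was 26 to 166 lower and 0 to 10 higher: leaving out KO replicates 1, 2 and 3 gave 26, 61 and 63 lower, and leaving out Ctrl replicates 1 and 2 gave 84 and 82. In the gene lists the replicate block gave 1 other heavy chain higher in edgeR and 1 in DESeq2 (H2-Q5), 1 peptide supply gene lower (Blmh) and 1 receptor lower (Cd160) in edgeR, and 3 interferon genes lower in edgeR and 2 in DESeq2; DESeq2 without the block also called 2. Calls in these lists were 0 whichever single library was left out. The planned comparison of sequence windows between transcripts at several lengths, protein identity and levels per length were not run, since no transcripts or proteins were used here. Depth limits H2-Bl in KO, which rests on 313 counts; the effect of reads shared between copies was not measured.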
